A study of Lens culinaris with 50 samples.

Results

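The genes described here are 100 lentil genes whose transcripts were present in the embryo at every one of 8 stages and stood furthest above the seed coat throughout. They were chosen from the measured values, out of 58243 genes in the table. A gene had to average at least 100 normalized reads in the 2 embryo libraries of each stage, which 10149 genes did. For each of those, the embryo mean was divided by the seed coat mean of the same stage, with 1 added to both, and genes were ranked by the smallest of the 8 log2 ratios. The first 100 were kept. Embryo against seed coat is therefore given below as a description of the choice, without a test. Whole seed libraries took no part in the choice. A whole seed holds both tissues that the rule compared, however, so whole seed tests are not fully independent of it. Changes between stages within embryo or within seed coat rest on libraries that the rule used, so their counts and adjusted p describe the chosen genes and nothing is read from how they differ from other genes.

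The study followed gene expression through embryogenesis in Lens culinaris, cultivar CDC Gold, by RNA-seq of 50 libraries. Embryo, seed coat and whole seed were each sampled in 2 libraries at each of 8 stages. The first were zygote, quadrant, globular and heart, and the later ones were torpedo, early bent, late bent and mature stage. Another 2 whole seed libraries came from unfertilized ovules. All plants came from growth chambers, and all flowers were emasculated and pollinated by hand. Embryos were dissected out under a microscope, and what remained after the embryo was taken away was the seed coat sample, so any other seed tissue left behind is part of it. All groups carry 1 genotype and no treatment differs between them. The label text does not say how many plants or seeds went into a library or whether the 2 libraries of a group came from separate plants, so p-values measure only the spread between these samples.

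A legume seed holds an embryo, which forms the root, shoot and cotyledons of the next plant, inside a seed coat made by the mother plant. In the early stages cells divide and the body plan is laid down, whereas in the bent stages the cotyledons fill with storage protein and starch before the seed dries. A gene that marks the embryo through all of this time must be transcribed, or its RNA kept, both in the few dividing cells of the first stages and in the large storage tissue of the last. The files give identifiers without gene names or products, so no role is stated for any gene, and the tissue labels could not be set against known marker genes.

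Depth ran from 13019472 to 35634980 gene reads per library, and the median library had 23945567. In the 5 libraries with the lowest share, 13.9% to 21.6% of genes had no read, against 24.8% to 56.1% in the other 45. These 5 were both unfertilized ovule libraries and replicate 2 of the seed coat at torpedo, early bent and mature stage. Without them the same rule gave 94 of the 100 genes. The number 5 was fixed, and no wide gap follows it. Next came replicate 2 of the mature embryo at 24.8%, a library that the rule used, while replicate 1 had 48.6%. Values are normalized reads, that is reads divided by the library's size factor. They are not divided by gene length, so levels are compared between samples of 1 gene and not between genes.

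The 100 genes ranged from a smallest embryo to seed coat ratio of 261-fold for the first to 2.50-fold for the last. Their median smallest log2 ratio was 2.16, against -0.64 over all 10149 genes that met the embryo minimum. Of those 10149 genes, 2074 were higher in the embryo at all 8 stages, 223 were more than 2-fold higher at all 8, and 25 were more than 16-fold higher at all 8. In each of the 100 genes both embryo libraries were above both seed coat libraries at every stage. The rule had ranked genes on these same libraries, and this count was not made over the 10149 genes.

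The lead of the embryo over the seed coat had no single course. The median log2 ratio of the 100 genes was 3.01 at zygote, 4.01 at quadrant, 3.75 at globular, 3.78 at heart, 3.28 at torpedo, 3.49 at early bent, 4.16 at late bent and 3.91 at mature stage. Over the 10149 genes the same median lay between 0.11 and 0.31. The smallest ratio of a gene lay most often at the ends of development, in 26 of the 100 genes at zygote and in 23 at mature stage. It lay at quadrant stage in 5 and at early bent stage in 5. The mature stage median of 3.91 was nonetheless above those of torpedo and early bent stage. The same counts were not made over the 10149 genes. In a tissue made of many cell types, fewer expressing cells and less RNA per cell cannot be told apart.

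**Figure D1:**
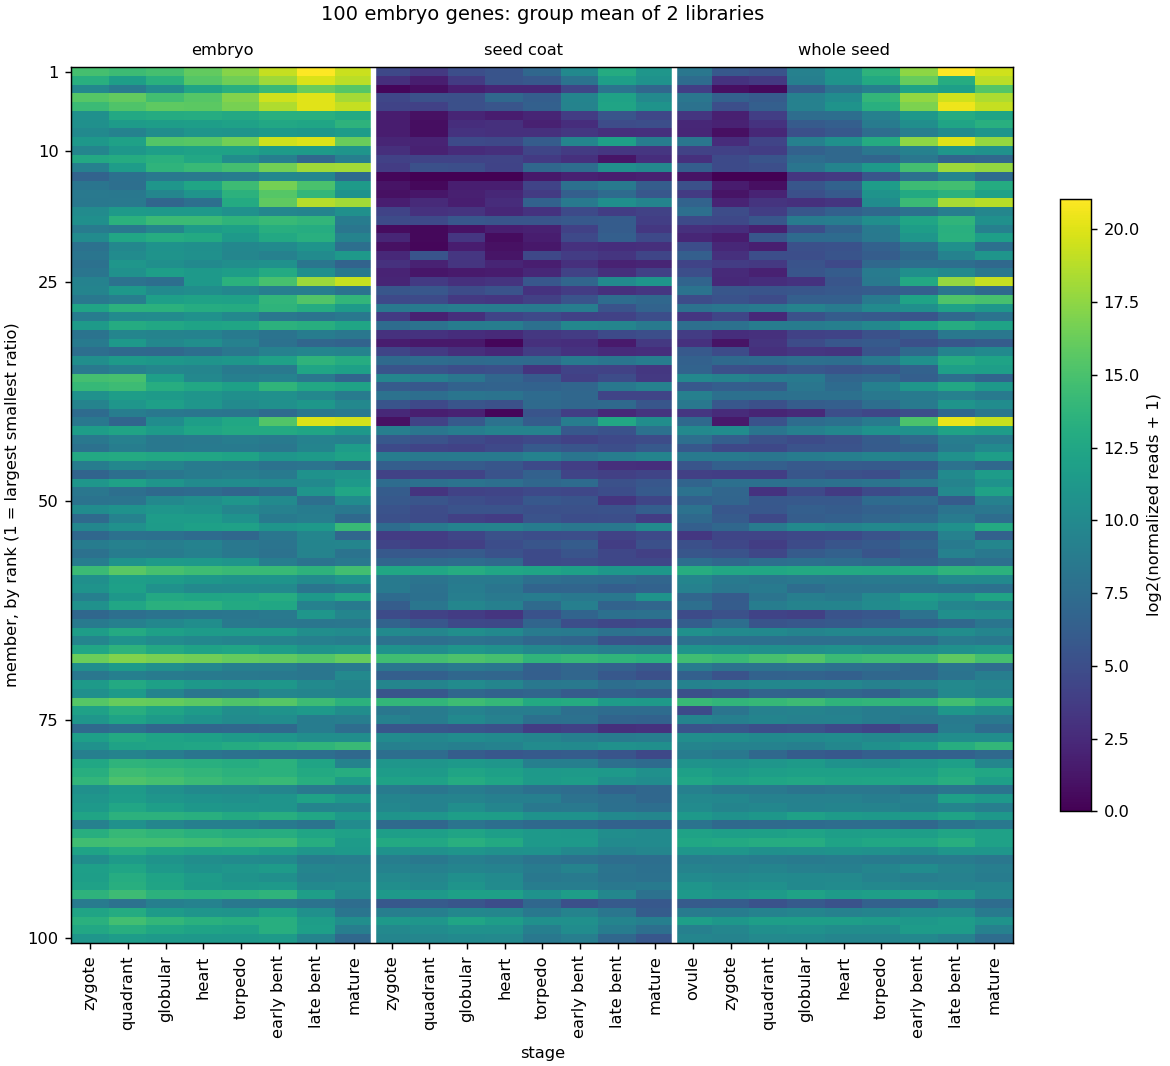
Group means of 2 libraries as log2(normalized reads + 1) for the 100 genes, one row each, ordered by the rule from rank 1 at the top, with stages along the horizontal axis in embryo, seed coat and whole seed. Within a row, each embryo column is lighter than the seed coat column of its stage, while levels differ widely between rows. By the medians, whole seed columns are near seed coat levels at zygote and quadrant stage. They are above those from globular stage on and come near embryo levels at late bent stage.

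**Figure D2:**
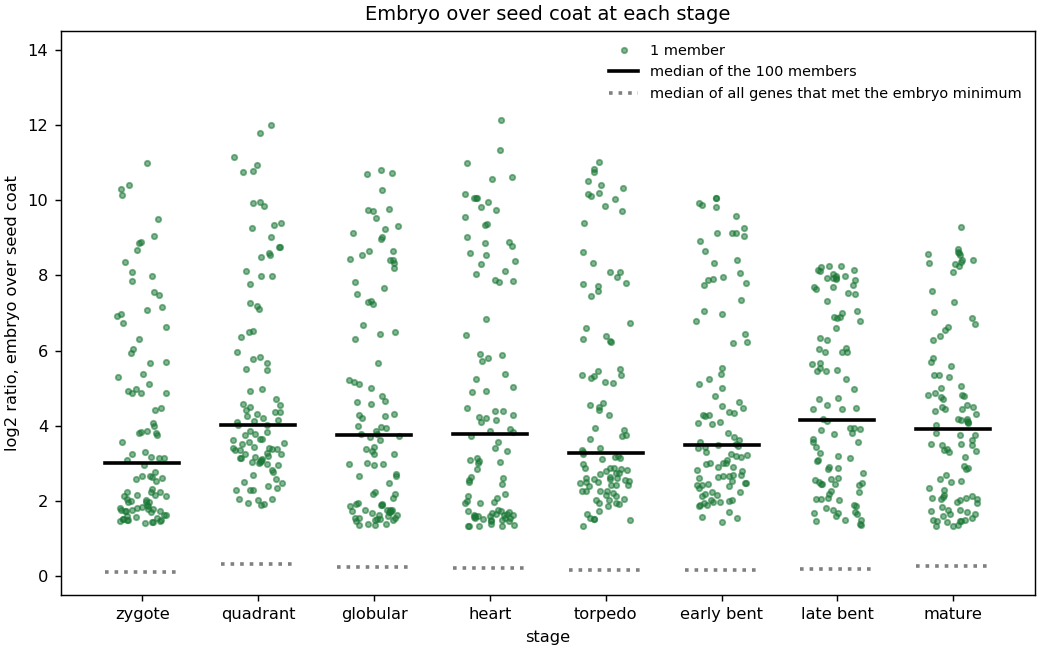
Log2 ratio of embryo over seed coat group mean (1 added to both) at each stage, one point per gene, with the median of the 100 genes as a solid bar and that of all 10149 genes with at least 100 normalized reads in every embryo stage as a dotted bar. The medians of the 100 genes lie between 3.01 and 4.16 and those of the 10149 genes between 0.11 and 0.31.

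By the median of these genes, the seed coat held between 5.50% and 12.2% of the embryo level. The share was larger in the lowest ranked genes, the smallest ratio at rank 100 being 2.50-fold. The median seed coat level was 12.2% of the embryo level at zygote stage, 6.17% at quadrant, 7.38% at globular, 7.25% at heart, 10.1% at torpedo, 8.81% at early bent, 5.50% at late bent and 6.63% at mature stage. The converse list, 100 seed coat genes chosen from 11455 genes by the same rule with the tissues exchanged, had an embryo level of 17.3% of the seed coat level at zygote stage, 2.96% at quadrant and between 1.05% and 2.10% from globular stage on. How much embryo RNA each seed coat library carried, and how much of the signal was made in the seed coat, was not tested.

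At the head of the list stood 10 genes with a smallest ratio of at least 107-fold, followed by a gap to 62.2-fold at rank 11. In order they were Lcu.2RBY.5g050090, 5g050250, 5g050260, 5g050030, 5g050180, 6g042510, 5g057360, 5g005200, 5g071150 and 3g064400, the prefix Lcu.2RBY being common to all identifiers. Lcu.2RBY.5g050090 had 17913 and 41169 normalized reads in zygote stage embryos, against 15.8 and 28.9 in zygote stage seed coats. At late bent stage it reached 2240994 and 1897059 in embryos, against 9778 and 6094 in seed coats. Its seed coat level thus climbed with the embryo level, and no seed coat library came near an embryo library at any stage.

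Of these 10, 4 varied between 4.94-fold and 8.26-fold over the embryo stages. Lcu.2RBY.6g042510 had between 5155 and 11447 normalized reads in all 14 embryo libraries from quadrant to mature stage, and 1319 and 1746 at zygote stage. Its seed coat libraries ranged between 0 and 67.3, with the highest at late bent stage. Lcu.2RBY.3g064400 had 548 and 1024 in zygote stage embryos, its highest mean at heart stage, with 4234 and 4887, and 2041 and 1959 at mature stage. Seed coat libraries of 3g064400 never passed 28.1. Lcu.2RBY.5g005200 stayed between 571 and 3564 in every embryo library, against 0.62 to 10.5 in seed coat libraries. Lcu.2RBY.5g057360 was between 1302 and 6648 in 15 of 16 embryo libraries, with the second mature library at 18029, and its highest seed coat library had 39.2. In these 4 genes the embryo libraries of all stages lay above the seed coat libraries of all stages, not only above those of the same stage.

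At the other end, the members ranked 98 to 100 had smallest log2 ratios of 1.33 for Lcu.2RBY.1g011460, 1.32 for 6g027660 and 1.32 for 4g043360. The first 3 genes left out had 1.32 for Lcu.2RBY.3g069150, 1.31 for 5g039630 and 1.31 for 5g013660, so nothing separates the last members from the genes just outside.

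The choice was repeated in 1 replicate at a time, and the chosen genes were then read in the replicate that had not been used. Chosen in replicate 1, 99 of 100 genes were higher in the embryo at all 8 stages in replicate 2, and 83 were more than 2-fold higher at all 8. Among all genes that met the embryo minimum in replicate 1, 17.05% were higher in the embryo and 1.96% more than 2-fold higher at all 8 stages of replicate 2. Chosen in replicate 2, 99 of 100 were higher in replicate 1 and 87 more than 2-fold higher, against 19.7% and 2.02%. The median smallest log2 ratio was 1.88 and 1.70 in the unused replicate, against 2.01 and 1.95 in the replicate used. The lists so chosen shared 78 and 79 genes with the list chosen on both replicates. Whether the 2 libraries of a group came from separate plants is not stated. These values therefore describe how well the libraries repeat each other and are no test of the embryo lead.

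Presence at every stage did not mean a constant level. The highest embryo stage mean was a median of 9.12 times the lowest in the 100 genes, with quartiles of 5.09 and 21.5, against 3.43 over the 10149 genes, with quartiles of 2.37 and 5.92. Only 1 of the 100 varied less than 2-fold over the stages, 16 varied 2-fold to 4-fold, 51 varied 4-fold to 16-fold, 24 varied 16-fold to 256-fold and 8 varied more than 256-fold. Among the 10149 genes, 13.95% varied less than 2-fold and 0.118%, or 12 genes, more than 256-fold. The minimum of 100 normalized reads sets how far a member can fall but not how far it can rise.

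The steadiest member was Lcu.2RBY.2g026630, with a highest to lowest ratio of 1.94. It had 302 and 402 normalized reads in zygote stage embryos, 529 and 686 at quadrant, 330 and 343 at globular, and 400 and 343 at heart stage. Torpedo embryos had 522 and 462, early bent embryos 387 and 427, late bent embryos 645 and 663, and mature embryos 531 and 635. Its 16 seed coat libraries ranged from 13.4 to 61.3, highest at zygote stage. The next 4 were Lcu.2RBY.7g002090 at 2.68-fold, 7g053440 at 2.83-fold, 2g006970 at 2.96-fold and 7g008310 at 3.01-fold. Of the 5, none passed both thresholds between mature and zygote embryo in limma. Their log2 changes were 0.73 (SE 0.32, adjusted p = 0.0491) for 2g026630, 0.75 for 7g002090, 0.16 for 7g053440, 1.20 for 2g006970 (SE 0.60, adjusted p = 0.0837) and -0.49 for 7g008310. For 2g006970 the call is made with edgeR (adjusted p = 0.0340) and with DESeq2 (adjusted p = 0.0294), and 2g026630 misses it only by its fold.

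The widest courses belonged to genes with low embryo values early, above the minimum by the mean of 2 libraries, and some of the highest embryo values late. Lcu.2RBY.3g052060 had 593 and 88.0 normalized reads in zygote stage embryos, and 105 and 126 at quadrant stage. Early bent embryos had 6871 and 76092 of it, late bent embryos 1315105 and 733075, and mature embryos 260735 and 1354964. Its highest stage mean was 8878 times its lowest. Lcu.2RBY.4g077560 spanned 3423-fold, with 142 and 108 at globular and 368994 and 486614 at late bent stage, and 3g068100 spanned 3345-fold, with 188 and 190 at globular and 608583 and 654776 at mature stage. In 3g052060 and 3g068100 1 embryo library was below the minimum of 100, at zygote and quadrant stage, and the mean of the pair was above it. Lcu.2RBY.4g081710 spanned 503-fold and peaked earlier, at 94155 and 117009 in the early bent stage, and 1g048050 spanned 502-fold. Zygote embryo means of 3g052060, 4g077560 and 3g068100 were 0.0332%, 0.0798% and 0.245% of their late bent means. Over the 29 genes outside the list with at least 100000 normalized reads in late bent embryos the median was 0.0740%. How the early embryo libraries came to carry these reads was not tested.

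**Figure D3:**
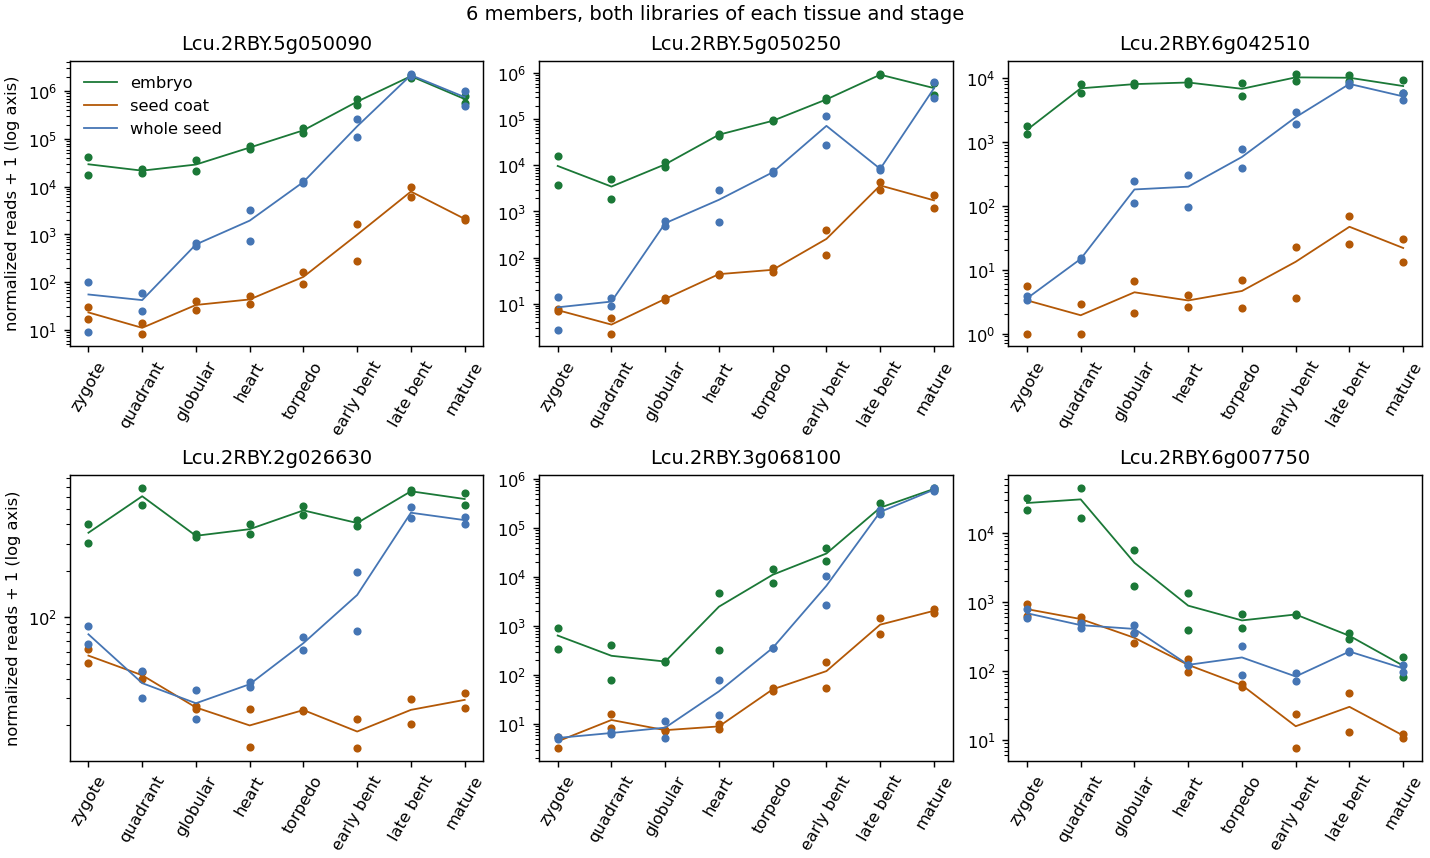
Normalized reads + 1 on a log axis by stage for 6 of the 100 genes, with both libraries of each tissue as points and lines through their means: embryo in green, seed coat in orange and whole seed in blue. The steadiest gene (2g026630), a gene that climbs over 3345-fold in the embryo (3g068100) and one that falls in all 3 tissues (6g007750) all keep the embryo above the seed coat at each stage.

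The peaks lay mainly at the quadrant stage or in late development. Of the 100 genes, 45 had their highest embryo stage mean at quadrant stage, 5 at globular, 6 at heart, 1 at torpedo, 11 at early bent, 20 at late bent and 12 at mature stage. None peaked at zygote stage. Of the 10149 genes, 26.8% peaked at quadrant, 12.1% at late bent and 30.2% at mature stage. Zygote stage held the peak of 5.58% of them, globular 5.52%, heart 7.32%, torpedo 3.15% and early bent 9.35%. Of the 45 with a quadrant peak, 40 were lowest at late bent or mature stage, with a median highest to lowest ratio of 7.36. The 32 that peaked at late bent or mature stage had a median ratio of 14.2.

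Consecutive embryo stages, whose libraries the rule had used, were compared with limma over all 29440 genes for which 2 or more libraries had 10 or more normalized reads. A gene is called where the adjusted p is under 0.05 and the fold at least 2. From zygote to quadrant stage 39 of the 100 genes rose and 0 fell, and their median log2 change was 0.97. Over all tested genes the median was 0.00, 16.7% were called, 3.65% higher and 13% lower. At the unadjusted level 61 of the 100 genes had p under 0.05, and 86 were on the higher side. The largest rise was that of Lcu.2RBY.4g045390, with 1850 and 2348 normalized reads in quadrant stage embryos, against 269 and 201 in zygote stage embryos (log2 change 3.16, SE 0.60, limma adjusted p = 0.000231). Next came 7g002120 with 9110 and 12696 at quadrant, against 1071 and 1786 at zygote stage (log2 change 2.96, SE 0.56, limma adjusted p = 0.000265). The count of 39 rests on both libraries of each stage: it was 17 without replicate 1 of the zygote stage and 15 without replicate 2 of the quadrant stage.

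From quadrant to globular stage 17 of the 100 genes were called, 10 higher and 7 lower, beside 14.1% of all tested genes, 8.1% higher and 6.04% lower. Lcu.2RBY.5g071150 had 58230 and 31610 normalized reads in globular stage embryos, against 2126 and 6219 in quadrant stage embryos (log2 change 3.56, SE 0.87, limma adjusted p = 0.00393). Lcu.2RBY.6g007750 went the other way, with 5734 and 1700 in globular stage embryos, against 44935 and 16830 at quadrant stage (log2 change -3.14, SE 0.60, limma adjusted p = 0.000312). Without replicate 1 of the quadrant stage, or without either globular library, the count was 10. From globular to heart stage limma called 0 of the 100 genes and 1.28% of all tested genes, 0.506% higher and 0.778% lower. At an unadjusted p under 0.05 there were 17, and edgeR called 1 and DESeq2 called 4. From heart to torpedo stage 5 were called, 2 higher and 3 lower, beside 4.97% of all, 3.21% higher and 1.76% lower. Lcu.2RBY.4g077560 was the largest, with 10151 and 4827 normalized reads in torpedo stage embryos, against 159 and 246 in heart stage embryos (log2 change 5.14, SE 0.80, limma adjusted p = 9.92e-05). The count of 5 was 2 without replicate 1 of the heart stage and 1 without replicate 2 of the heart stage or either torpedo library. Quantile scaling left 2 higher and 0 lower, and TMM scaling 2 and 2.

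Between torpedo and early bent stage 14 were called, 11 higher and 3 lower, beside 7.56% of all tested genes, of which 4.05% were higher and 3.51% lower. This split depends on scaling: it was 6 higher and 4 lower under TMM scaling and 2 and 2 under quantile scaling. It depends on each library too: the count of 14 was 4 without replicate 1 and 6 without replicate 2 of the torpedo stage, and 7 without replicate 1 and 2 without replicate 2 of the early bent stage. Lcu.2RBY.4g077560 rose again, with 45905 and 80324 normalized reads at early bent stage (log2 change 3.12, SE 0.80, limma adjusted p = 0.0117). Lcu.2RBY.1g060100 fell to 547 and 263 in early bent embryos, against 1409 and 1980 in torpedo embryos (log2 change -2.13, SE 0.60, limma adjusted p = 0.0203). Lcu.2RBY.1g068780 fell to 609 and 380 in early bent embryos, against 2013 and 1981 in torpedo embryos (log2 change -2.05, SE 0.48, limma adjusted p = 0.00494).

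From early to late bent stage 42 of the 100 genes were called, 16 higher and 26 lower, beside 23% of all tested genes, of which 11.7% were higher and 11.4% lower. Lcu.2RBY.3g052060 rose by 5.42 on the log2 scale (SE 0.95, limma adjusted p = 7.44e-05). The more even pair was that of 7g005200, with 5211 and 5420 normalized reads in late bent embryos, against 285 and 459 in early bent embryos (log2 change 3.87, SE 0.37, limma adjusted p = 2.25e-09). Lcu.2RBY.1g004660 fell to 730 and 510 in late bent embryos, against 2646 and 9547 in early bent embryos (log2 change -3.04, SE 0.61, limma adjusted p = 0.000328). The count of 42 was 24 without replicate 1 of the early bent and 18 without replicate 2 of the late bent stage.

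From late bent to mature stage 35 were called, 6 higher and 29 lower, beside 27.1% of all tested genes, of which 14.6% were higher and 12.5% lower. The median log2 change was -0.47 in the 100 genes and 0.26 over all tested genes. Lcu.2RBY.7g002120, which had risen at quadrant stage, fell to 625 and 308 normalized reads in mature embryos, against 20777 and 8402 in late bent embryos (log2 change -4.91, SE 0.56, limma adjusted p = 1.10e-07). Lcu.2RBY.6g003820 fell to 269 and 357, against 10299 and 6663 (log2 change -4.73, SE 0.64, limma adjusted p = 1.09e-06). Lcu.2RBY.3g063440 was the largest rise, with 11459 and 26764 in mature embryos, against 1870 and 3158 in late bent embryos (log2 change 2.85, SE 0.35, limma adjusted p = 1.89e-07). The count of 35 was 23 without replicate 1 of the late bent and 22 without replicate 2 of the mature stage.

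**Figure D4:**
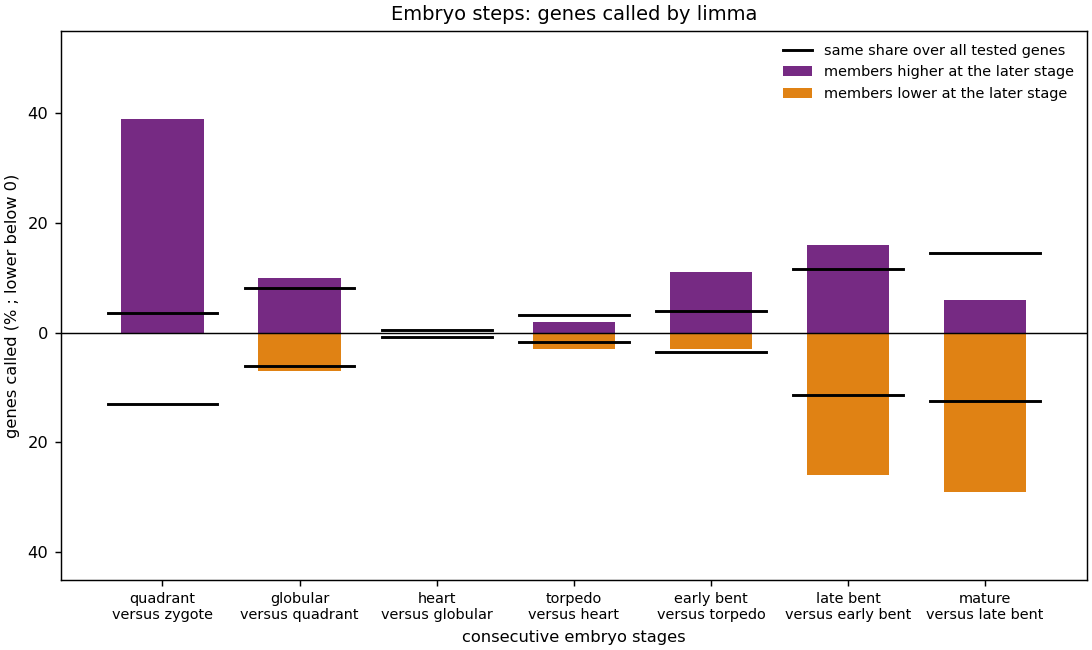
Percent of the 100 genes called by limma at each consecutive embryo step, with those higher at the later stage above 0 and those lower below it; black bars give the same share over all 29440 tested genes. The largest bar is the 39 genes higher at quadrant than at zygote stage, where 3.65% of all genes were higher, and the 29 genes lower at mature than at late bent stage stand beside 12.5% of all genes.

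Taken over single genes, 21 of the 100 were called at none of the 7 embryo steps, 30 at 1, 30 at 2, 14 at 3 and 5 at 4. Of all tested genes, 43.8% were called at none, 31.3% at 1, 15.3% at 2, 6.56% at 3 and 2.4% at 4, many of them below the embryo minimum that the 100 genes had to meet. Between the ends of the series, mature against zygote stage, 65 of the 100 embryo genes were called, 30 higher and 35 lower, beside 53.4% of all tested genes, of which 27.9% were higher and 25.5% lower. The median log2 change was -0.27 in the 100 genes and 0.26 over all tested genes. A fall is limited in these genes by the embryo minimum that chose them. Lcu.2RBY.6g007750 fell furthest, to 156 and 80.9 normalized reads in mature embryos, against 21887 and 32825 in zygote stage embryos (log2 change -7.88, SE 0.60, limma adjusted p = 4.80e-12).

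Seed coat libraries were the denominator of the rule, so their course is likewise a description of the chosen genes. Between mature and zygote stage seed coats limma called 80 of the 100 genes, 31 higher and 49 lower, beside 48.5% of all tested genes, 30.6% higher and 17.9% lower. The median log2 change was -1.05 in the 100 genes and 0.47 over all tested genes. The rule had set these libraries low against the embryo, and 1 of the 2 mature seed coat libraries is among the 5 with few genes at 0. Without those 5 libraries 69 were called, 24 higher and 45 lower. Lcu.2RBY.6g007750 fell to 11.4 and 9.80 normalized reads in mature seed coats, against 952 and 628 in zygote stage seed coats (log2 change -6.06, SE 0.60, limma adjusted p = 1.08e-09). Lcu.2RBY.3g068100 rose to 1849 and 2273 in mature seed coats, against 2.33 and 4.6 in zygote stage seed coats (log2 change 8.89, SE 0.86, limma adjusted p = 1.10e-09). In both genes the seed coat moved the way the embryo did and stayed below it.

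Whole seed libraries took no part in the choice of genes, but a whole seed holds both tissues that the rule compared. With time whole seeds came to carry these transcripts at close to embryo level. The median whole seed level of the 100 genes was 81.1 normalized reads at zygote, 82.8 at quadrant, 205 at globular, 210 at heart, 421 at torpedo, 617 at early bent, 1261 at late bent and 1028 at mature stage. On a scale where the seed coat level of a gene is 0 and its embryo level is 100, the median position of the whole seed was 0.0481 at zygote, 0.453 at quadrant, 1.30 at globular, 1.90 at heart, 10.3 at torpedo, 19.4 at early bent, 81.7 at late bent and 89.7 at mature stage. On this scale, which is linear in reads, the whole seed was nearer the embryo than the seed coat in 0 of the 100 genes from zygote to torpedo stage. It was nearer the embryo in 3 at early bent, in 91 at late bent and in 87 at mature stage. By fold a gene can be nearer the embryo sooner: at torpedo stage 5g050090 had 12603 in whole seeds, 152122 in embryos and 129 in seed coats. The same count was not made over the 10149 genes, nor by fold.

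Over the 8 whole seed stages limma's F-test called 84 of the 100 genes, beside 57.6% of all tested genes. Between mature and zygote stage whole seeds 70 were called, 65 higher and 5 lower, beside 35.5% of all tested genes, of which 17.7% were higher and 17.8% lower. The median log2 change was 2.95 in the 100 genes and -0.02 over all tested genes. Of the 65 that rose in whole seeds, 30 also rose in the embryo between the same stages, 27 were not called in the embryo and 8 fell there. Of the 35 that fell in the embryo, 5 fell in whole seeds and 22 were not called. Whether the embryo's share of the seed, the level per cell or both moved was not tested.

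The largest rises in whole seeds were those of genes near 0 at zygote stage. Lcu.2RBY.3g052060 had 512863 and 735315 normalized reads in mature whole seeds, against 2.24 and 1.14 in zygote stage whole seeds (log2 change 17.83, SE 0.95, limma adjusted p = 9.44e-15). Lcu.2RBY.3g068100 had 564664 and 655635, against 3.92 and 4.57 (log2 change 16.83, SE 0.86, limma adjusted p = 4.14e-15). Lcu.2RBY.4g077560 had 348044 and 569282, against 2.80 and 4.0 (log2 change 16.64, SE 0.80, limma adjusted p = 9.92e-16). Fitted changes against so few reads depend on the 1 added before the logarithm. In each of these genes both mature libraries were far above both zygote libraries.

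A steady embryo gene rose in whole seeds too. Lcu.2RBY.2g026630, the steadiest in the embryo, had 449 and 402 normalized reads in mature whole seeds, against 66.7 and 86.8 in zygote stage whole seeds (log2 change 2.46, SE 0.32, limma adjusted p = 1.66e-07). Lcu.2RBY.5g009410 fell in the embryo, to 1234 and 1328 in mature embryos against 3779 and 4754 in zygote stage embryos (log2 change -1.73, SE 0.28, limma adjusted p = 3.16e-06). In whole seeds it rose, to 978 and 1698 at mature stage against 235 and 301 at zygote stage (log2 change 2.27, SE 0.28, limma adjusted p = 4.58e-08).

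The 5 genes that fell in whole seeds were Lcu.2RBY.6g007750, 4g043360, 7g059980, 6g019950 and L014790, the last of them named because the count is small. Lcu.2RBY.6g007750 had 96.3 and 120 normalized reads in mature whole seeds, against 587 and 790 in zygote stage whole seeds (log2 change -2.65, SE 0.60, limma adjusted p = 0.000548). Lcu.2RBY.4g043360 had 143 and 215, against 611 and 793 (log2 change -1.99, SE 0.39, limma adjusted p = 0.000103). The falls of 7g059980 (log2 change -1.37, SE 0.48, limma adjusted p = 0.0207), 6g019950 (log2 change -1.08, SE 0.44, limma adjusted p = 0.0475) and L014790 (log2 change -1.03, SE 0.38, limma adjusted p = 0.0275) were smaller. The call of 7g059980 was lost without either zygote library (adjusted p = 0.0950 and 0.0607) or without replicate 1 of the mature stage (0.200). The call of 6g019950 was lost without replicate 2 of the zygote stage (adjusted p = 0.347) or without either mature library (0.205 and 0.0778). All 5 also fell in the embryo.

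At late bent and mature stage the whole seed could be set directly against the embryo. The whole seed mean was within 2-fold of the embryo mean in 92 of the 100 genes at late bent stage, with 8 lower and 0 higher, and in 87 at mature stage, with 7 lower and 6 higher. In all 6 the 2 tissues were within 2-fold in replicate 1, so the difference rests on replicate 2. For 5g071150, mature whole seed and embryo had 118049 and 112304 in replicate 1, and 305227 and 42920 in replicate 2. The median log2 ratio of whole seed to embryo was -0.24 and -0.13 at these stages, against -0.13 and -0.11 over the 10149 genes. The 10149 genes had a median log2 ratio of embryo over seed coat of only 0.19 and 0.28 at these stages. A mix of both tissues would thus lie near their embryo level in any case. Their medians therefore cannot show whether nearness to the embryo is particular to the 100 genes. The counts within 2-fold were not made over the 10149 genes. The gene that stood apart was Lcu.2RBY.5g050250. It had 8693 and 8135 normalized reads in late bent whole seeds, against 905007 and 964481 in late bent embryos. That is 0.900% of the embryo level. The other 37 genes with at least 100000 normalized reads in late bent embryos ran from 33.6% to 130%, with a median of 89.2%.

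Before and after that stage the same gene was abundant in whole seeds, with 117209 and 27417 normalized reads at early bent and 297385 and 647122 at mature stage. Its neighbour in identifier order, Lcu.2RBY.5g050260, was low at the same point, with 3902 and 3670 in late bent whole seeds, against 73774 and 83022 in late bent embryos, or 4.83%. The ratio of 5g050250 to 5g050260 was 2.22 in late bent whole seeds, 11.9 in late bent embryos and 13.2 in late bent seed coats. It was 14.8 in early bent and 10.7 in mature whole seeds. Both late bent whole seed libraries show it, and what sets it was not tested. At mature stage 3g052000 was the member furthest above its embryo level, by 2.44 on the log2 scale, with 1673 and 5855 in whole seeds against 1134 and 253 in embryos. Most of that gap lay between the second libraries.

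**Figure D5:**
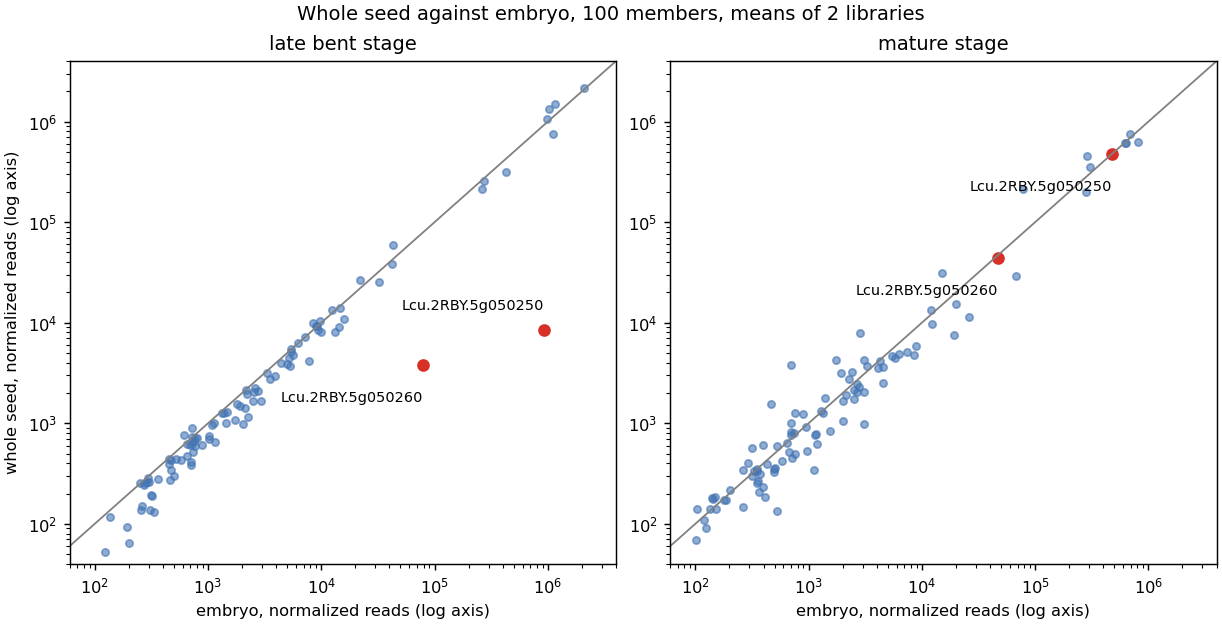
Whole seed against embryo, both in normalized reads on log axes and as means of 2 libraries, for the 100 genes at late bent stage (left) and mature stage (right); the line marks equal levels. Lcu.2RBY.5g050250 and 5g050260, in red, lie at 0.900% and 4.83% of the embryo level at late bent stage and on the line at mature stage.

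In whole seeds the first step after the unfertilized ovule lowered more of these genes than it raised. Between zygote stage whole seeds and unfertilized ovules limma called 20 of the 100 genes, 1 higher and 19 lower, beside 3.91% of all tested genes, of which 1.64% were higher and 2.27% lower. The median log2 change was -0.49 in the 100 genes and -0.12 over all tested genes. Both ovule libraries are among the 5 with few genes at 0: 18.2% and 21.6% of genes had no read in them, against 38.99% and 38.7% in the zygote stage whole seed libraries. The part of this in the lower calls was not tested. The count was 13 without replicate 1 of the zygote stage and 10 without replicate 2 of the ovule.

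The 3 largest falls were in genes that reached very high embryo values later. Lcu.2RBY.3g052060 had 2.24 and 1.14 normalized reads in zygote stage whole seeds, against 122 and 174 in unfertilized ovules (log2 change -5.80, SE 0.95, limma adjusted p = 0.000240). Lcu.2RBY.5g071150 had 8.41 and 2.28, against 56.7 and 548 (log2 change -5.00, SE 0.87, limma adjusted p = 0.000499), and its call was lost without replicate 2 of the ovule (adjusted p = 0.0731). Lcu.2RBY.5g050250 had 12.9 and 1.71, against 85.5 and 260 (log2 change -4.61, SE 0.77, limma adjusted p = 0.000302). Of the 19 that fell, 7 were among the 9 members with at least 100000 normalized reads in late bent embryos, and 12 were not.

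These ovule levels were small beside the embryo. For the 9 abundant members, the ovule level was between 0.0144% and 0.0418% of the late bent embryo level, a median of 0.0247%, and over the 29 genes as abundant that are not members the median was 0.0225%. How the ovule libraries came to carry that amount was not tested. Among the 12 others was Lcu.2RBY.2g026630, with 66.7 and 86.8 normalized reads in zygote stage whole seeds, against 215 and 202 in ovules (log2 change -1.44, SE 0.32, limma adjusted p = 0.00601).

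The single rise was that of Lcu.2RBY.5g009410, with 235 and 301 normalized reads in zygote stage whole seeds, against 30.03 and 19.96 in unfertilized ovules (log2 change 3.39, SE 0.28, limma adjusted p = 1.71e-09). Zygote stage embryos had 3779 and 4754 of it and zygote stage seed coats 425 and 212, so the whole seed level was near that of the seed coat. In no member was the ovule above the zygote stage embryo. The rule had chosen members for a zygote stage embryo level above the seed coat, so this result is not independent of the choice. The ovule group means ran from 1.20 to 24863 normalized reads over the 100 genes, with a median of 201. In the ovule 60 of the 100 genes reached 100, against 48 in zygote stage whole seeds. None of these counts was made over the other genes that met the embryo minimum.

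In identifier order the first 5 members by the rule lie together. Lcu.2RBY.5g050030, 5g050090, 5g050180, 5g050250 and 5g050260 fall in a run of 24 consecutive identifiers. They were the only identifiers of the run with an embryo stage mean of at least 100, and 18 of the 24 were under 10 at every embryo stage. Over the 25 groups of tissue and stage, the genes most like Lcu.2RBY.5g050090 in the whole table were 5g050180 (Pearson r = 1.00 on the log2 scale) and 5g050030 (r = 0.99). Those most like 5g050250 were 5g050260 (r = 0.99) and 5g050090 (r = 0.96), and those most like 5g050260 were 5g050250 (r = 0.99) and 5g050090 (r = 0.98). The points share libraries and depth, and reads of near-identical copies could be divided between such neighbours, which the files do not resolve. Among the other 95 members only 3g052000 with 3g052060 (r = 0.73) and 7g002090 with 7g002120 (r = 0.84) lay within 10 identifiers of each other.

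Of the 5 genes of the run, 4 had at least 3769 normalized reads in each zygote stage embryo library. Lcu.2RBY.5g050260 had 358 and 1502 there, a mean of 930, below the median zygote level of 1360 over the 100 genes. Lcu.2RBY.5g050030 had 37793 and 53662 normalized reads at zygote and 68567 and 61378 at quadrant stage, 34601 and 17832 at globular stage, and 1323454 and 911221 at late bent stage. Its zygote level was 4.09% of its late bent level. The other 3 abundant genes of the run stood at 1.43% (5g050090), 1.81% (5g050180) and 1.04% (5g050250). In the 5 abundant members outside the run, 3g052060, 4g077560, 3g068100, 1g048050 and 5g071150, the zygote level was 0.0332% to 0.245% of the late bent level. Over the 29 abundant genes that are not members the median was 0.0740%. Presence at 100 normalized reads was common among the 38 abundant genes at the first stage, where 37 reached it, and rarer at globular and heart stage, where 16 and 17 did. Only 14 reached it at all 8 stages.

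As a share of all reads, the 100 genes took 2.22% and 2.59% of the zygote stage embryo libraries, 3.40% and 3.27% at quadrant, 3.08% and 2.47% at globular and 2.99% and 2.93% at heart stage. The share was 4.39% and 4.90% in torpedo embryos and 10.7% and 12.3% in early bent embryos. It was highest in late bent embryos, at 17.4% and 15.3%, and 8.00% and 12.2% in mature embryos. The run of 5 alone took 10.4% and 9.72% of the late bent embryo libraries. Seed coat libraries gave the 100 genes between 0.195% and 0.784% of their reads. Late bent whole seeds gave them 16.6% and 15.2%, close to late bent embryos, whereas zygote stage whole seeds gave 0.449% and 0.547%, close to zygote stage seed coats at 0.572% and 0.520%.

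By the start of the identifier, 19 of the 100 genes began 1g, 12 began 2g, 16 began 3g, 9 began 4g, 17 began 5g, 14 began 6g, 12 began 7g and 1 began L. The same starts held 13.6%, 16.1%, 13.9%, 15.7%, 13.2%, 12.3%, 12.97% and 2.24% of the 10149 genes, in that order. The 17 include the run of 5.

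The spread between the 2 libraries of a group was largest where the embryo was latest. The median gap between the 2 embryo libraries of a stage over the 100 genes was 0.25 on the log2 scale at zygote, 0.28 at quadrant, 0.22 at globular, 0.26 at heart, 0.39 at torpedo, 0.31 at early bent, 0.39 at late bent and 0.53 at mature stage. Over the 10149 genes the same gap ran from 0.16 at zygote to 0.42 at mature stage. The 2 mature embryo libraries also differed in their genes with no read, at 48.6% and 24.8%.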

How the data were processed

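The 100 genes, the lists and the comparisons were chosen with earlier results of these data known. The deposited signal is gene-level reads divided by a size factor per library. Every deposited value was a whole number of reads times its library's factor (within 0.001 reads, 100% of values), so depths are recovered reads. Per the submitters' processing notes, CASAVA, Trimmomatic, featureCounts and DESeq2 were used, with no version or role. With the aligner not given in the sources used here, nor the build, no genome, gene lengths or sequences were used.

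Main tests used limma 3.58.1 (trend and robust) in R 4.3.3 on log2(normalized reads + 1), 1 fit of 25 groups with 25 residual degrees of freedom, and Benjamini-Hochberg adjustment over 29440 genes for which 2 or more libraries had 10 or more normalized reads. Fold changes on this scale understate the change of low genes. A call needs adjusted p under 0.05 and 2-fold. The fit was tested on simulated data. Alternatives were pseudocounts of 0.5 and 8, no filter or a filter of 50, TMM and quantile scaling, a replicate block, no fold, leaving out 5 libraries or each library in turn, edgeR 4.0.16 and DESeq2 1.42.0. Python 3.11.15 drew the tables.

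Named genes were the first 10 by the rule, the 5 with the highest embryo means, the 5 with the smallest and the 5 with the largest embryo range, the 4 largest rises and 4 largest falls in whole seed mature against zygote, 3 of each against the ovule, the genes ranked 98 to 103, and the 2 most alike genes of the first 3. Those named at each embryo step were among the 2 largest called changes each way, added after the values were seen, as were 3g052000 and 5g050260 in late whole seeds.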

Additional observations from a re-analysis of the deposited data

Results flagged for a closer look

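In 5 cases among the named genes both whole seed libraries moved one way between 2 stages and both embryo libraries the other, by any amount between mature and zygote stage or by at least 2-fold in both tissues between consecutive stages. Over all 100 genes and with no minimum size, the embryo was lower and the whole seed higher in 29 genes between late and early bent stage and in 20 between mature and zygote stage. Between quadrant and zygote stage the embryo was higher and the whole seed lower in 19. None of these differences was itself tested, and the same counts were not made over all tested genes. Lcu.2RBY.5g050250 changed by -3.10 on the log2 scale in whole seeds and 1.78 in the embryo between late bent and early bent stage. Lcu.2RBY.5g050030 changed by 3.25 in whole seeds and -1.31 in the embryo between globular and quadrant stage. Lcu.2RBY.6g007750 changed by 1.20 in whole seeds and -1.03 in the embryo between late bent and early bent stage. Between mature and zygote stage Lcu.2RBY.7g008310 changed by 1.43 in whole seeds and -0.47 in the embryo, and Lcu.2RBY.5g009410 by 2.32 and -1.74. These are changes of group means and differ slightly from the fitted ones. Whole seeds neared embryo levels over the same time, and its part in these differences was not tested.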

How the results depend on the processing

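The counts between mature and zygote stage in whole seed (64 to 73), embryo (61 to 69) and seed coat (68 to 83), and over the whole seed stages (80 to 87), stayed within 1.5 times under each alternative run. Small embryo steps did not. Heart against globular stage gave 2 with a pseudocount of 8, 1 with edgeR and 4 with DESeq2, and 0 to 1 leaving out a library. Torpedo against heart gave 2 without a filter, 2 with quantile scaling, 8 with DESeq2, and 1 to 2 leaving out a library. Early bent against torpedo gave 8 without a filter, 4 with quantile scaling, and 2 to 7 leaving out a library. Quantile scaling gave 10 for globular against quadrant and 19 for quadrant against zygote, and leaving out a library gave 10 to 14 and 15 to 35. Leaving out a library gave 18 to 40 for late against early bent, 22 to 36 for mature against late bent, and 10 to 15 for zygote whole seed against ovule. Fewer samples enter those fits; for the other settings the cause was not tested. The log2 change of Lcu.2RBY.7g053440 between mature and zygote embryo, 0.16 and not called, turned to -0.13 under TMM and under quantile scaling and ran from -0.12 to 0.44 when a library was left out (-0.12 without replicate 1 of the mature stage). The higher and lower calls of torpedo against heart were 2 and 2 under TMM and 2 and 0 under quantile scaling.

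TMM scaling shifted the median of all tested genes by 0.21 in zygote whole seed against ovule and by -0.20 in whole seed, -0.26 in embryo and -0.42 in seed coat between mature and zygote stage. Quantile scaling shifted it by -0.12 in whole seed and -0.41 in seed coat between those stages and by -0.17 in mature against late bent embryo. Of the list, 61 genes remained when the mature stage was left out of the rule, 64 without the zygote stage and 66 when ranked by the mean ratio, against 91 to 100 when a library was left out. With the replicate number as a block the counts were 70 in whole seed mature against zygote, 65 in embryo and 20 in zygote whole seed against ovule. Same-numbered libraries correlated between -0.31 and 0.15 and the labels pair no samples. The ovule comparison could not be run without the 5 libraries with the fewest genes at 0, and edgeR and DESeq2 were not run over the whole seed stages. Of 326 alternatives over 22 named changes, 309 kept direction and call.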
